A study of Mus musculus with 3 samples.

Results

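The angiopoietin and Tie receptor system was described in endothelial cells sorted from the adult mouse renal medulla. It was taken as 6 genes: the receptors Tek (Tie2) and Tie1, the phosphatase Ptprb, and the ligands Angpt1, Angpt2 and Angpt4. Each of the 6 had 1 probe set whose annotation names that gene alone, out of 19938 genes with such a probe set. No member appeared in a probe set that names several genes.

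The study profiled kidney endothelial cells to learn which growth factors, receptors and transcription factors each vascular bed uses. The medullary group held 3 arrays. For each one, 2 kidneys were pooled from adult male FVB/N mice that carry the Tg(TIE2GFP)287Sato transgene, with no treatment given in the labels. In these mice the Tie2 promoter drives green fluorescent protein. Medulla was cut free, digested with collagenase and sorted by fluorescence. The study calls its samples independent, but the labels do not say that each pool came from other animals, so the spread between arrays may be partly technical. The embryonic, glomerular, cortical and diabetic samples were not analysed here, so every comparison below is with a limit on the same arrays and not with another vascular bed. Because the sort itself selected cells with Tek promoter activity, the level of Tek checks the sort and is not a finding. The study singled out Angpt2 on these same samples, so its level is not independent evidence either.

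Tek is the endothelial receptor kinase for the angiopoietins. Angpt1, made mainly by perivascular and mesenchymal cells, is known as its activating ligand, and Angpt2, made mainly by endothelial cells and stored in their granules, as a ligand that can block or activate it depending on context. Tie1 binds no angiopoietin with high affinity and modulates Tek, while Ptprb, the vascular endothelial protein tyrosine phosphatase, removes phosphate from Tek. In the kidney this system is known for its role in the ascending vasa recta, the fenestrated vessels that return fluid from the medulla, and in lymphatic vessels.

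The 250 bases before the start of Tek and of Tie1 are shown because activity of a Tek promoter defined the sorted cells and Tie1 encodes its partner receptor. They were taken from RefSeq (GRCm38.p6), which had an entry for Tek, Tie1 and Angpt4, that is 3 of the 6. The sources used here do not give how much of the Tek promoter the transgene carries. The ETS core GGAA, read on both strands as GGAA or TTCC, is in capitals, and its matches do not overlap.
Tek, chr4:94739039-94739288, plus strand: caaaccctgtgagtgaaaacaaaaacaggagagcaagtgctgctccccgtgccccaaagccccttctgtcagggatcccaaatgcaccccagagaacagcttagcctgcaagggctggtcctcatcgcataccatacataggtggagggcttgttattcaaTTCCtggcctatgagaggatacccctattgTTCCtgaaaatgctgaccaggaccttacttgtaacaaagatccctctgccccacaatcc
Tie1, chr4:118489850-118490099, minus strand: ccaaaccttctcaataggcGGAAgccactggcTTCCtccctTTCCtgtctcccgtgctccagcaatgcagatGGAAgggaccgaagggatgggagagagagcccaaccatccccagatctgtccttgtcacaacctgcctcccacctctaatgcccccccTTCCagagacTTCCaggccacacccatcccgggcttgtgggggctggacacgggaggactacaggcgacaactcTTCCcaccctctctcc
The Tek window held 2 matches, at positions -89 and -59 from the start, and 76.8% of 32851 RefSeq promoter windows of the same length held at least as many. The Tie1 window held 7, a number reached by 3.82% of windows. The Angpt4 window (chr2:151910957-151911206, plus strand) held 5, reached by 18.0%. At least 1 match occurred in 93.4% of all windows, with a median of 3. The forkhead motif TGTTTAC, or GTAAACA on the other strand, had 0 matches in each of the 3 windows and occurred in 3.17% of all windows. A match describes the letters only and is no evidence of binding.

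Both receptors and the phosphatase were expressed far above background on every array, Angpt2 was the 1 ligand clearly above it, Angpt4 lay at the background limit and Angpt1 lay below it. Levels are deposited log2 values. They were set against 100 units (log2 6.64), the raw level the study used as its filter, and against a background limit of 7.95, the 95th percentile of 1245 probe sets for olfactory, vomeronasal and bitter taste receptors, genes known mainly from sensory cells. A gene under that limit is not shown to be silent. Probes differ in affinity, so the levels of different genes are not ranked. By limma with Benjamini-Hochberg adjustment over all genes, 6 of 6 members were called above 100 units, where 84.5% of all genes were, so the 100-unit limit says little about these genes. Above the background limit were 5 of 6, against 52.4% of all genes, and 1 was below it, against 41.5%. With a prior variance from genes with 3 different array values, 4 of 6 were above, beside 9903 of 19938 genes. With that prior 1 was below, beside 7572 genes. With 6 genes these shares are a description.

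**Figure D1:**
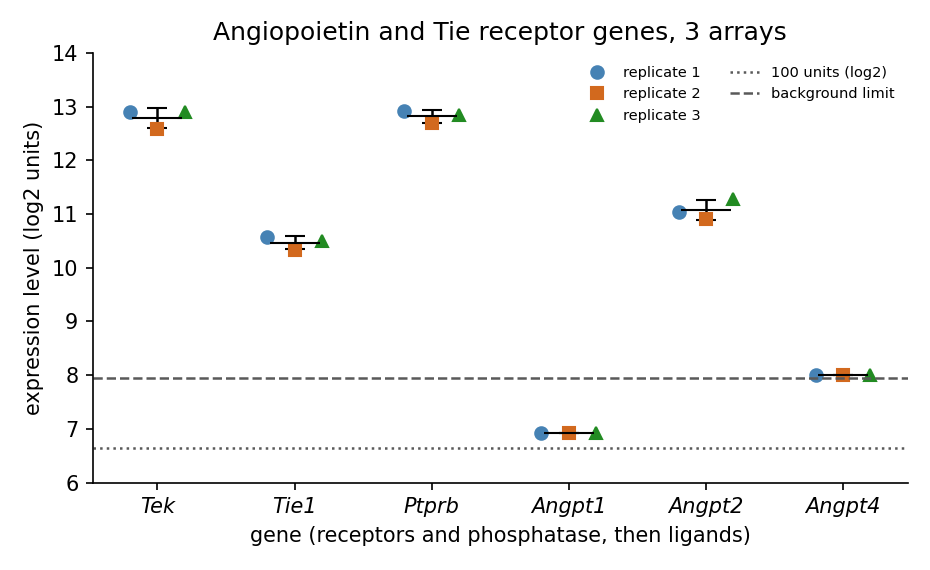
Expression level (y axis, log2 units) of the 6 genes (x axis) in 3 arrays, 1 symbol per array, with bars for the mean and SD (n = 3); the dotted line marks 100 units (6.64) and the dashed line the background limit (7.95). Tek, Tie1, Ptprb and Angpt2 sit above both lines on every array, Angpt4 sits on the dashed line and Angpt1 between the lines.

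Tek was measured at log2 levels of 12.91, 12.58 and 12.90 in replicates 1, 2 and 3, a mean of 12.80 ± 0.19 (SD, n = 3). Replicate 2 was the low array, and all 3 lay far above the background limit. The mean was 4.85 above that limit (SE 0.10, adjusted p = 3.22e-04 by limma with Benjamini-Hochberg adjustment), a 28.8-fold excess on the linear scale. As a check of the sort, RNA of the receptor whose promoter drives the fluorescent label was therefore present in each pool.

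Tie1, the partner receptor that forms complexes with Tek, had levels of 10.58, 10.33 and 10.49, a mean of 10.47 ± 0.13 (SD, n = 3). Replicate 2 was again the lowest. Its mean lay 2.52 above the background limit (SE 0.07, adjusted p = 5.22e-04 by limma with Benjamini-Hochberg adjustment), or 5.75-fold. Of the 1245 sensory receptor probe sets, 1 (0.0803%) was at or above the Tie1 level, and 0 reached Tek, Ptprb or Angpt2.

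Ptprb, the phosphatase that restrains Tek and also acts at endothelial junctions, had levels of 12.92, 12.69 and 12.84, a mean of 12.82 ± 0.12 (SD, n = 3). The 3 arrays spanned 1.17-fold, with replicate 2 lowest. Ptprb was 4.87 above the background limit (SE 0.06, adjusted p = 1.19e-04 by limma with Benjamini-Hochberg adjustment), or 29.3-fold. The RNA levels of the kinase and of its phosphatase were thus both well above background in the same sorted pools.

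Among the ligands, Angpt2 had levels of 11.04, 10.91 and 11.27, a mean of 11.08 ± 0.18 (SD, n = 3). It was lowest in replicate 2 and highest in replicate 3, with a 1.29-fold span. The mean was 3.13 above the background limit (SE 0.10, adjusted p = 7.36e-04 by limma with Benjamini-Hochberg adjustment), or 8.75-fold. Angpt2 is the ligand that endothelial cells are known to make themselves.

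Angpt1, the activating ligand known from perivascular cells, was listed at 6.92 on all 3 arrays, with no spread. This was 0.28 above 100 units and 1.02 below the background limit, and 25.8% of the sensory receptor probe sets (321 of 1245) were at or above it. Since a spread of 0 understates the error, the fit was repeated with a prior variance from genes with 3 different values. Angpt1 stayed below the background limit (adjusted p = 1.92e-04 by limma) and above 100 units (adjusted p = 0.0106). With the 100-unit limit raised to 200 units it fell 0.72 below.

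Angpt4, a ligand for Tek known to be more restricted in its tissues, was listed at 8.01 on all 3 arrays. It was 0.06 above the background limit, and 4.50% of the sensory receptor probe sets (56 of 1245) were at or above it. The limma call above that limit was lost with the prior from genes with 3 different values (adjusted p = 0.367), and the level was 0.71 below the limit when it was set at the 99th percentile. Between 16 and 19 other probe sets on each array carried exactly the Angpt4 value, and 1 other carried the Angpt1 value. The values of Tek, Tie1, Ptprb and Angpt2 were shared with 0 others. Sharing was common, with 38.3%, 39.0% and 38.6% of all probe sets sharing their value with another in replicates 1, 2 and 3. Of all genes, 46.3% had the same value on all 3 arrays, and the sources used here do not say how such values arose.

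These are bulk samples, in which fewer cells of a type and less RNA per cell cannot be told apart. Angpt1 is therefore given beside the perivascular markers. Of 11 smooth muscle and pericyte markers, 4 were called above the background limit, 5 below and 2 neither, with a median of 7.80. Of all genes, 52.4% were above and 41.5% below. With the prior from genes with 3 different values 2 were above, 4 below and 5 neither. Of all 19938 genes, 9903 were above and 7572 below with that prior. The 2 above, Kcnj8 and Notch3, were named after their values were seen. The PDGF receptor Pdgfrb was at 7.56 on every array, the pericyte signaling regulator Rgs5 at 7.94, 7.61 and 7.61, and the proteoglycan Cspg4 at 8.01, 8.01 and 8.04. The mean over the list was between 7.93 and 7.95 on the 3 arrays. The list thus held genes on both sides of the limit, with Kcnj8 at 8.87 and Notch3 at 8.51 on every array, and the part of perivascular RNA in the Angpt1 level was not tested.

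The 4 members with 3 different array values, Tek, Tie1, Ptprb and Angpt2, were all lowest in replicate 2. Among all 4781 genes with 3 different values, 31.4% were lowest in that array, and 37.8% of the 1419 with a mean of at least 10. Relative to its own mean, Tek deviated by 0.11, -0.22 and 0.11 in replicates 1, 2 and 3. Tie1 deviated by 0.11, -0.14 and 0.02, and Ptprb by 0.10, -0.13 and 0.02. Angpt2 had another shape, with -0.03, -0.16 and 0.20. The SDs of 0.12 to 0.19 were ordinary for genes at this level, whose SD had a median of 0.18 and quartiles of 0.10 and 0.30.

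**Figure D2:**
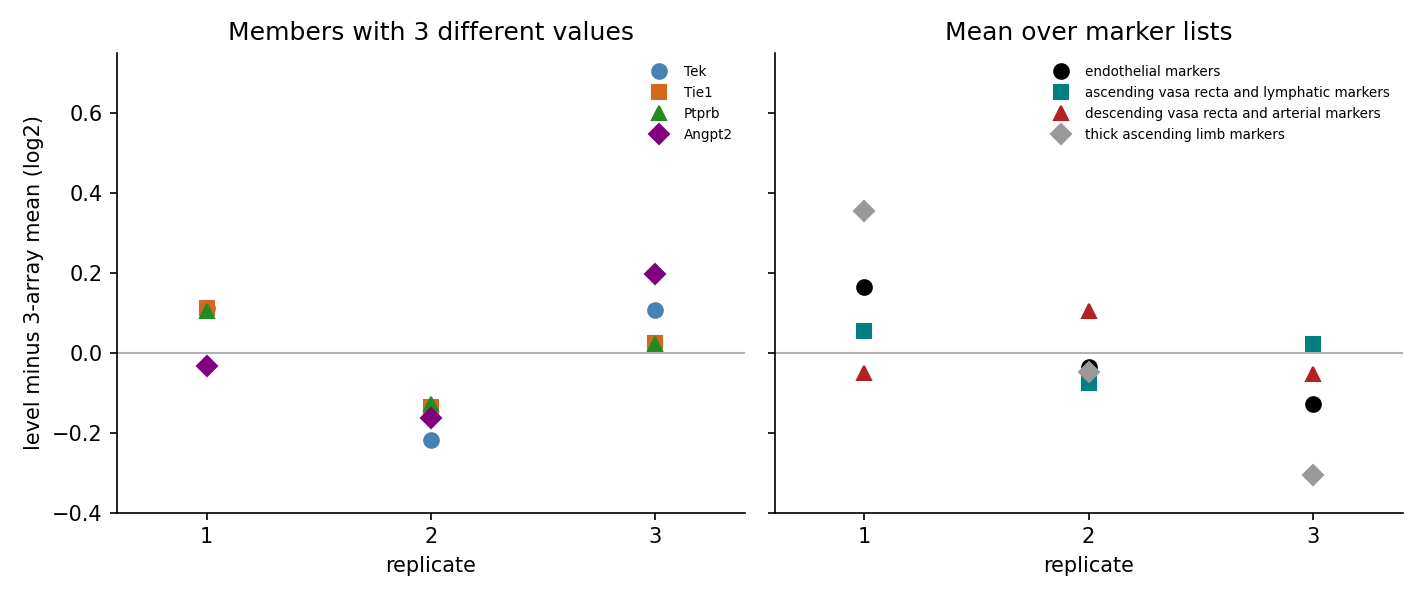
Level minus the 3-array mean (y axis, log2) by replicate (x axis) for the 4 members with 3 different values (left) and for the mean of 4 marker lists (right). The 4 members are lowest in replicate 2, where the descending vasa recta and arterial list is highest; the means of the endothelial and thick ascending limb lists are highest in replicate 1 and lowest in replicate 3.

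The low replicate 2 was not shared by endothelial markers as a whole. Their mean level was 11.91, 11.71 and 11.62 in replicates 1, 2 and 3. Of the 8 with 3 different values, 8 were highest in replicate 1, 3 lowest in replicate 2 and 5 lowest in replicate 3. Of the 1419 genes with 3 different values and a mean of at least 10, 17.5%, 37.8% and 44.7% were lowest in replicates 1, 2 and 3. The endothelial counts of lowest arrays lay near those shares and are a description. Taken relative to the endothelial list, Tek deviated by -0.05, -0.18 and 0.24, and Angpt2 by -0.20, -0.13 and 0.33. On that scale Tek and the other 3 members were highest in replicate 3, and Angpt2 was lowest in replicate 1 in place of replicate 2. Markers of the ascending vasa recta and lymphatic vessels had means of 9.66, 9.53 and 9.63. Both of those with 3 different values were lowest in replicate 2, as were 31.4% of all genes with 3 different values. Markers of the descending vasa recta and arteries had means of 10.15, 10.31 and 10.15. Of the 6 with 3 different values, 4 were highest in replicate 2, while 2, Efnb2 and Hey1, were lowest there like the members. The urea transporter Slc14a1 of the descending limb, for example, was at 11.67, 12.08 and 11.84, and the water channel Aqp1 at 11.31, 12.18 and 11.86. Thick ascending limb markers, from the tubule, had means of 9.06, 8.65 and 8.39, and Umod, the uromodulin gene of that segment, was at 11.61, 10.40 and 9.49. Of the 3 with 3 different values, 2 were highest in replicate 1 and 1, Cldn10, in replicate 2. The part of these shifts in the member values was not tested, and each array is 1 pool, so differences between arrays have no test. The share of all genes highest in each array was not computed. The counts of markers highest in an array are therefore a description of short lists and do not show a shift of a vessel type.

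The profile of Ptprb was close to that of Tie1. The difference between their deviations varied by 0.01 (1.01-fold) over the 3 arrays, against 0.17 for Tie1 and Tek, 0.18 for Ptprb and Tek, 0.24 for Angpt2 and Tek and 0.32 for Angpt2 and Tie1. Likeness was measured as the Euclidean distance between centred profiles over 3 arrays, among 4780 other genes with 3 different values. By that measure Ptprb was the tenth closest gene to Tie1 (rank 10), but rank 207 after quantile normalization. The genes closest to Tek were Zc3hc1, Suds3, Phf20l1, Fam114a1 and Cys1, at distances of 0.0037 to 0.015, and 160 genes (3.35%) lay within 0.1. After quantile normalization 0 of these 5 were still among the closest 5. With 3 values per gene many profiles are nearly alike, so these names carry little weight.

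Ligand-like proteins, relatives of the angiopoietins and proteins that bind Tie receptors, were mostly at or below background. Of 6 measured, 2 were called above the background limit and 4 below, against 52.4% and 41.5% of all genes. Their median was 7.69 beside 8.15 for all genes. Angptl6 was at 8.22 and Angptl4, a lipase inhibitor, at 8.00, and the Angptl4 call was lost with the prior from genes with 3 different values (adjusted p = 0.451 by limma). Below were Angptl1 at 7.47, Angptl7 at 7.78, the matrix protein Svep1 at 7.60 and the Tie1 ligand Lect2 at 6.74. The call for Angptl7 was also lost with that prior (adjusted p = 0.0625 by limma).

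Receptor partners and sheddases were mostly above background, with 6 of 8 above, 1 below and 1 neither, and a median of 9.89. Of all genes, 52.4% were above and 41.5% below. Cdh5, the junction cadherin that associates with Ptprb, was at 12.92, 12.65 and 12.57. The integrin subunits that can bind angiopoietins or Tek were above as well, with Itgb1 at 12.10 on every array, Itga5 at 9.55, 9.49 and 9.55, and Itgav at 9.16, 9.00 and 9.16. Mmp14, a membrane metalloprotease linked to shedding of Tek, was at 7.75 and below the limit. Ptprj, another receptor phosphatase of endothelial cells, spread widely at 9.13, 8.41 and 8.15 and could not be told from the limit (8.56 ± 0.51, adjusted p = 0.146 by limma).

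**Figure D3:**
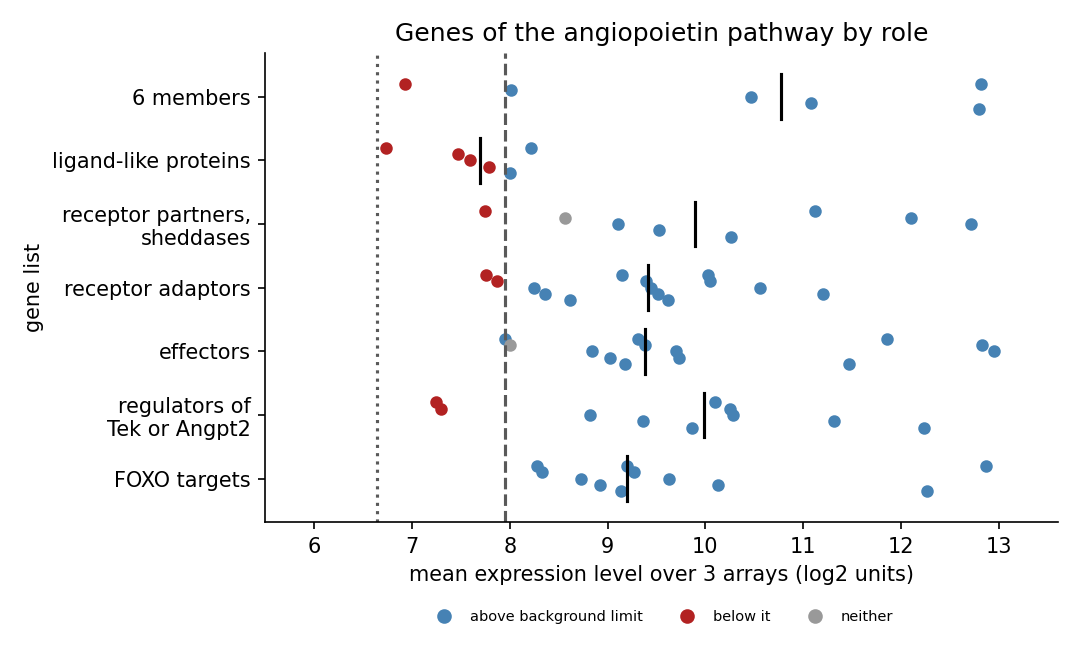
Mean level over 3 arrays (x axis, log2 units) of each measured gene, by role (y axis), coloured by the limma call against the background limit, with short bars at list medians; the dotted line marks 100 units (6.64) and the dashed line the background limit (7.95). Ligand-like proteins cluster around the dashed line, while most genes of the other roles lie to its right.

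Adaptors and effectors that carry the Tek signal inside the cell were nearly all above background. Of 14 adaptors, 12 were above and 2 below, against 52.4% and 41.5% of all genes, with a median of 9.42. Grb2 was at 9.47, 9.39 and 9.30, Grb7 at 8.25 and Dok2, the docking protein recruited to active Tek, at 8.36. Grb14 at 7.76 and the kinase Src at 7.87 were the ones below, and the Src call was lost with the prior from genes with 3 different values (adjusted p = 0.291 by limma). Rasa1, the Ras GTPase-activating protein, was at 11.32, 11.07 and 11.23 and was the closest profile to Tie1 in the deposited values, but not among the closest 5 after quantile normalization. It was named after its values were seen.

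Of 13 effectors, 12 were above background, against 52.4% of all genes, and 1 was neither, with a median of 9.38. The kinase Akt1 was at 9.18 on every array, Akt2 at 9.68, 9.03 and 9.44, and Pdpk1, which activates Akt, at 9.71, 9.71 and 9.78. Foxo1, the transcription factor that Akt keeps out of the nucleus and that drives Angpt2 in endothelial cells, was at 9.71, 9.71 and 9.68. Sphk1, the sphingosine kinase, was at 8.00 ± 0.05 (SD, n = 3) and could not be told from the limit (adjusted p = 0.182 by limma). Foxo4 lay at 7.95, within rounding of the limit, and its call above it was lost with the prior from genes with 3 different values (adjusted p = 0.985 by limma).

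Transcription factors known to act on Tek or Angpt2 were above background in 8 of 10 cases, with 2 below and a median of 9.98. Of all genes, 52.4% were above and 41.5% below. The ETS factors Ets1, at 10.43, 10.35 and 10.06, Elf1, at 10.30, 10.30 and 10.17, and Elf2, at 10.16, 10.16 and 9.97, were all above, as was Gata2 at 8.82. Gata3 at 7.25 and Foxc1 at 7.30 were below. The list therefore held related factors on both sides of the limit.

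All 11 measured FOXO targets, genes known to respond to FOXO factors downstream of Tek, were above the background limit, against 52.4% of all genes. Their median was 9.20. Esm1, the endothelial proteoglycan endocan, was at 12.61, 12.06 and 12.14, Bmper at 8.27, Pdgfb, the growth factor that attracts pericytes, at 9.63, and Cited2 at 9.27. Many of these genes are expressed in other ways than through FOXO, and an RNA level says nothing of receptor activity. Over the 62 measured pathway genes of 70 listed, 51 were above, 9 below and 2 neither, with a median of 9.34. Of all genes, 52.4% were above and 41.5% below. All 62 pathway genes were above 100 units, as were 84.5% of all genes. The others of the 70 were not analysed here.

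The labelled cell type was checked against its markers. All 12 endothelial markers were above the background limit, against 52.4% of all genes. Pecam1, the adhesion molecule CD31, was at 12.53, 12.38 and 12.40, and the VEGF receptor Kdr at 12.40, 12.12 and 11.99. Of 8 ascending vasa recta and lymphatic markers, 7 were above and 1, the lymphatic gene Lyve1 at 7.96, was neither, with the fenestral protein Plvap at 12.00, the venous factor Nr2f2 at 9.91 and Ephb4 at 10.43. The call for Pdpn, another lymphatic gene at 7.96, was lost with the prior from genes with 3 different values (adjusted p = 0.864 by limma), which left 6 above and 2 neither. Of 8 descending vasa recta and arterial markers, 7 were above and 1, Hey1 at 8.34, was neither. With the same prior Hey1 was called above (adjusted p = 0.0412 by limma), so that all 8 were above. Of all 19938 genes, 9903 were above with that prior. The arterial ligand Efnb2 was at 11.04, 10.81 and 10.85. Genes from the lists for both limbs of the vasa recta were thus above background in the pools in which the members were measured. Plvap was also among the 12 endothelial markers, and which cells the RNA of these markers came from was not tested. Lyve1, Pdpn, Hey1 and Cldn10 were named after their values were seen.

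**Figure D4:**
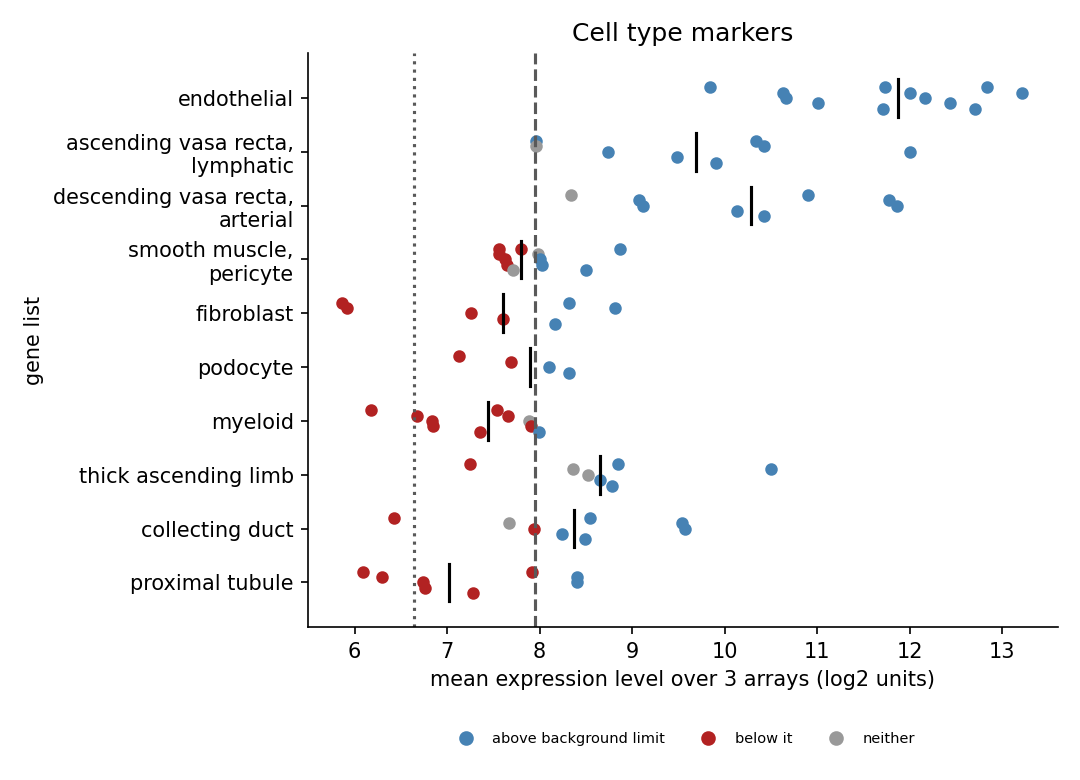
Mean level over 3 arrays (x axis, log2 units) of each measured marker gene, by cell type (y axis), coloured by the limma call against the background limit, with short bars at list medians; the dotted line marks 100 units (6.64) and the dashed line the background limit (7.95). All 12 endothelial markers lie to the right of the dashed line, and most myeloid and proximal tubule markers to its left.

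Markers of other cells were called above the background limit to different degrees, where 52.4% of all genes were above and 41.5% below. In lists this short, counts near those shares do not show that a cell type was present. In the thick ascending limb list 4 of 7 were above, 1 below and 2 neither. Umod was above, at 11.61, 10.40 and 9.49, with the transporter Slc12a1 at 9.68, 8.07 and 7.81 and the channel Kcnj1 at 8.84. In the collecting duct list 5 of 8 were above, 2 below and 1 neither, with the water channels Aqp2 at 9.67, 9.67 and 9.27 and Aqp3 at 8.54, 8.56 and 8.54, and Hsd11b2 at 8.25. Of 7 fibroblast markers 3 were above and 4 below, the collagens Col1a1 at 8.81, Col1a2 at 8.31 and Col3a1 at 8.17 being above. Of 4 podocyte markers 2 were above and 2 below, with Nphs1 at 7.69, Wt1 at 8.11 and Synpo at 8.32, and the Wt1 call was lost with the prior from genes with 3 different values (adjusted p = 0.0668 by limma). Proximal tubule markers had 2 of 8 above and 6 below, with Kap at 6.76, Lrp2 at 7.28 and Slc34a1 at 8.40. Myeloid cells can express Tek, and their markers had 1 of 10 above (Cd68 at 7.99, named after its value was seen), 8 below and 1 neither (Aif1). Ptprc (CD45) was at 6.68, Csf1r at 7.54 and Adgre1 at 6.18. With the prior from genes with 3 different values 0 of 10 were above, 7 below and 3 neither. Of all 19938 genes, 9903 were above and 7572 below with that prior. The part of tubule RNA in the level of the members was not tested.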

How the data were processed

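RNA of sorted medullary endothelial cells was amplified with the NuGEN Ovation Pico system, labelled with biotin and hybridised to Affymetrix Mouse Gene 1.0 ST arrays, which read 1 colour. The authors deposited log2 expression values per probe set, made with Affymetrix Expression Console per the labels, and the study names RMA normalization in GeneSpring. A log2 scale follows from the range of 3.55 to 14.4. The sources used here do not say whether it matches the raw scale of the study's filter of 100. Scanner files were not used here, so there were no background calls and no scan batches to examine.

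Of 35557 probe sets, 21789 named 1 gene, 1621 several and 12147 were unlisted. Of the first, 21698 (99.6%) were matched to RefSeq symbols (GRCm38.p6) by Entrez identifier. The probe set with the highest mean stood for each of 19938 genes. Array medians were 8.00 to 8.03 and correlations between arrays 0.964 to 0.966 over probe sets. The number of arrays limits the precision. All arrays form 1 group, so no contrast between groups was made. limma was fitted with an intercept only to log2 level minus the limit with lmFit and eBayes. Tests were two-sided, at an adjusted threshold of 0.05 after Benjamini-Hochberg over the 19938 genes. The fit was also run on simulated data, but the outcome is not given here, so no call rests on that run. That run is thus no evidence on the limma error of the 46.3% of genes with 1 value on all arrays. The alternatives changed the limits, the rule for several probe sets, the annotation, the normalization, a filter of 50 units and the eBayes prior, and left out each replicate.

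The members and lists were chosen with earlier results of these data known. Named genes are the 6 members, the first 4 measured of each pathway list, every pathway gene not called above the background limit, the first 3 measured of each marker list and the 5 profiles closest to Tek. A few genes outside this rule are named and said to be so, or given where a call was lost. The planned comparison of member proteins was not run. R 4.3.3 with limma 3.58.1 and Python 3.11.15 with numpy 2.4.6, pandas 2.3.3 and matplotlib 3.10.9 were used.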

Additional observations from a re-analysis of the deposited data

How the results depend on the processing

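The number of members above 100 units was 5 to 6 and above the background limit 4 to 5 over all alternatives run, and 44 to 56 of 62 pathway genes were above the background limit except with the limit at the 99th percentile of sensory receptor probe sets, which left 37. Leaving out 1 replicate gave 6 and 5 members and 44 to 47 pathway genes. Tek, Tie1, Ptprb and Angpt2 kept their direction and their calls in every alternative. Angpt1 fell by 0.72 below a limit of 200 units in place of 100. Angpt4 fell by 0.71 below the background limit at the 99th percentile, and with the prior from genes with 3 different values its difference of 0.06 was not called (adjusted p = 0.367 by limma). After quantile normalization 0, 0 and 1 of the 5 profiles closest to Tek, Tie1 and Angpt2 were shared with those from the deposited values, and the cause was not tested. No paired analysis was possible because the arrays form 1 group. The protein comparison was not run. With 46.3% of genes at 1 value on all arrays, the limma error of such genes, Angpt1 and Angpt4 among them, is understated.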
